A study of Mus musculus with 16 samples.

Results

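The Polycomb group genes described here are 10 genes of the mouse that were picked by name from the RNA-seq table, which lists 25965 genes, and all 10 were found in it with a value in each of its 9 columns. They are Ezh1, Ezh2, Eed and Suz12 of Polycomb repressive complex 2 (PRC2) and Ring1, Rnf2, Pcgf1, Pcgf6, Cbx2 and Phc1 of Polycomb repressive complex 1 (PRC1). The samples were oocytes of wild-type C57BL/6 females (C57BL/6Babr in the methods), pooled by diameter, with no genetic change or treatment in any group. RNA-seq was done in duplicate (replicates A and B) for 4 diameter classes (10–30 μm, then 40–45 μm, then 50–55 μm, and last 60–65 μm), with 1 further column for oocytes at the germinal vesicle (GV) stage. Methylation was measured by reduced representation bisulphite sequencing (RRBS) in duplicate for the 3 larger classes and by post-bisulphite adaptor tagging (PBAT) in 1 library at 60–65 μm. According to the methods, the 4 size classes came in order from mice of postnatal days 5 to 7, 7 to 12, 9 to 14 and 13 to 16, and GV oocytes from day 20, so that oocyte size and age of the mouse cannot be told apart. Oocytes were picked by hand from digested ovaries and washed to remove somatic cells. Each library was a pool of many oocytes, nothing in the labels ties the letters A and B to separate mice, and p-values measure the spread between these pools.

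Polycomb proteins keep developmental genes silent through marks on histone tails. PRC2 methylates lysine 27 of histone H3 through the enzymes EZH1 or EZH2, which need EED and SUZ12, whereas PRC1 adds ubiquitin to histone H2A through RING1 or RNF2 (RING1B), each paired with a PCGF protein. Canonical forms of PRC1 hold a CBX protein that reads the PRC2 mark and a PHC protein that clusters complexes, and variant forms are built around other PCGF proteins such as PCGF1 and PCGF6. In oocytes both complexes are known to act during growth, and maternal PRC2 marks are known to silence the maternal allele of a small set of genes after fertilisation.

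The start of each gene was examined in the RefSeq sequence of GRCm38.p6, because methylation at gene starts and in gene bodies was measured at the same loci. Windows of 250 bases before the RefSeq start were found for 8 of the 10 genes (Ezh1, Ezh2, Eed, Suz12, Ring1, Rnf2, Pcgf6 and Phc1). The window of Suz12 held 37 CpG dinucleotides, that of Ring1 30, Ezh2 23, Rnf2 20, Ezh1 and Pcgf6 14 each, Eed 12 and Phc1 8. At least 10 CpGs were present in 7 of the 8 windows and in 37.8% of the 32851 promoter windows of the mouse table, where the median was 6. The windows of Suz12 (chr11:79992856-79993105, plus strand), Ring1 (chr17:34024681-34024930, minus strand), Rnf2 (chr1:151500992-151501241, minus strand) and Pcgf6 (chr19:47050907-47051156, minus strand) lie outside annotated exons and are printed 5′ to 3′ with each CpG, the site that can be methylated, in capitals. They set the most CpG-dense start (Suz12) beside the start of a gene with little change in RNA (Pcgf6), and the starts of the ligase pair Ring1 and Rnf2, whose RNA levels lay far apart.
Suz12: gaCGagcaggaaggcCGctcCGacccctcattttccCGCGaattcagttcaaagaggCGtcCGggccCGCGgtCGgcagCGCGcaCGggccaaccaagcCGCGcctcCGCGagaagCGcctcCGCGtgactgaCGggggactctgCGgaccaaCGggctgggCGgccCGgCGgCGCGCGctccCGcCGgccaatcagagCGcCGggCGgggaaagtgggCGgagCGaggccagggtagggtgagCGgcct
Ring1: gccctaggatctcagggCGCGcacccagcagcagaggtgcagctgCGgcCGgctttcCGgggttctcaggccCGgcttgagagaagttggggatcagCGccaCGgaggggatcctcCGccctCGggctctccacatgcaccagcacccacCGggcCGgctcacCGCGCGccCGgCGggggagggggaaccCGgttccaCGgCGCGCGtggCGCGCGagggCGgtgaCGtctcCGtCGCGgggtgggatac
Rnf2: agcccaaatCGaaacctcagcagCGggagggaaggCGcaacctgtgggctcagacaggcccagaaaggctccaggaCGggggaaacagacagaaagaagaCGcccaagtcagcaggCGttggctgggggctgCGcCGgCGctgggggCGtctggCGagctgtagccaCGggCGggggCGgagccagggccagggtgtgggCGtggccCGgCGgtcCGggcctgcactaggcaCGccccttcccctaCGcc
Pcgf6: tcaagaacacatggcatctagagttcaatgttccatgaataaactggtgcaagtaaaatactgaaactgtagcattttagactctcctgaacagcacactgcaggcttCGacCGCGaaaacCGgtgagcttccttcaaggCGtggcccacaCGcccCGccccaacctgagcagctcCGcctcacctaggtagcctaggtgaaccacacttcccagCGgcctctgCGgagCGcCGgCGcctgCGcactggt
In the 60–65 μm PBAT library, 5 of 338 calls inside the printed Suz12 window were methylated (1.48%), 15 of 439 in that of Ring1 (3.42%), 7 of 172 in that of Rnf2 (4.07%) and 4 of 39 in that of Pcgf6 (10.3%). The 6 RRBS libraries gave 0.0950 to 1.69% in the Suz12 window, 0 to 1.08% in the Ring1 window and 0 to 3.94% in the Pcgf6 window, on 132 or more calls each. In the Rnf2 window they gave 0 to 8.11% on 45 to 160 calls.

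RNA levels are given as RPKM, reads scaled for the length of the exons and for library size, so that levels of different genes may be set side by side. The totals behind the RPKM values, recovered from their steps, ranged from 99369453 to 198298124 reads per library. Oocyte markers were present in each library (summed RPKM of 14 genes between 2768 and 3945), and blood markers summed to 0.276 to 0.577 RPKM. RPKM are shares of a library, and total RNA per oocyte was not measured, so a change in the share and a change in the amount per oocyte cannot be told apart, nor, for RNA of other cell types, fewer cells and less RNA per cell. Tests were done with limma on log2 of scaled RPKM plus 0.1 across the 8 libraries of growing oocytes, with Benjamini-Hochberg adjustment over 10518 genes, among which all 10 Polycomb genes passed the filter of 0.5 RPKM in 2 libraries.

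Across growth from 10–30 to 60–65 μm, 5 of the 10 genes rose (Cbx2, Pcgf1, Ezh2, Suz12 and Rnf2) and none fell by the limma test, while Eed, Phc1, Ezh1, Pcgf6 and Ring1 did not pass the threshold. Of all genes tested, 32.6% were called higher and 30.8% lower in this comparison. The median log2 change was 0.34 for the Polycomb genes and 0.02 for all genes tested. At the first step, from 10–30 to 40–45 μm, 4 genes rose (Pcgf1, Cbx2, Ezh2 and Suz12) and none fell, beside 14.8% of all genes called higher and 8.59% called lower (1560 and 903 genes). These became 690 higher and 269 lower without replicate A at 40–45 μm, 999 and 265 without replicate A at 10–30 μm, and 1179 and 559 without replicate B at 40–45 μm. Without scaling between libraries, the split of all genes at this step turned from 1560 higher and 903 lower to 1088 higher and 1521 lower, the median of all genes moved by -0.10 on the log2 scale, and 3 Polycomb genes were called.

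No Polycomb gene was called by limma between 40–45 and 50–55 μm. There, 2 Polycomb genes (Cbx2 and Ring1) and 3025 of the 10518 genes tested had an unadjusted p under 0.05. After adjustment, 5.23% of all genes were called higher and 3.64% lower. These 550 and 383 genes became 0 and 0 without replicate B at 40–45 μm or A at 50–55 μm, 400 and 144 without replicate A at 40–45 μm, and 187 and 66 without replicate B at 50–55 μm. They became 240 and 138 or 239 and 137 without replicate A or B at 60–65 μm, and 843 and 781 or 848 and 771 without replicate A or B at 10–30 μm. The Polycomb counts, 0 called and 2 at an unadjusted p under 0.05, were the same with edgeR on the reads recovered from the RPKM. Between 50–55 and 60–65 μm limma called 0% of genes higher and 0% lower, none of them a Polycomb gene, with 1450 genes and 0 Polycomb genes at an unadjusted p under 0.05. The count of 1450 genes fell when any library at 50–55 or 60–65 μm was left out, most without replicate A at 60–65 μm. For that last step edgeR also called 0 genes, with 1414 genes and 1 Polycomb gene at an unadjusted p under 0.05.

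**Figure D1:**
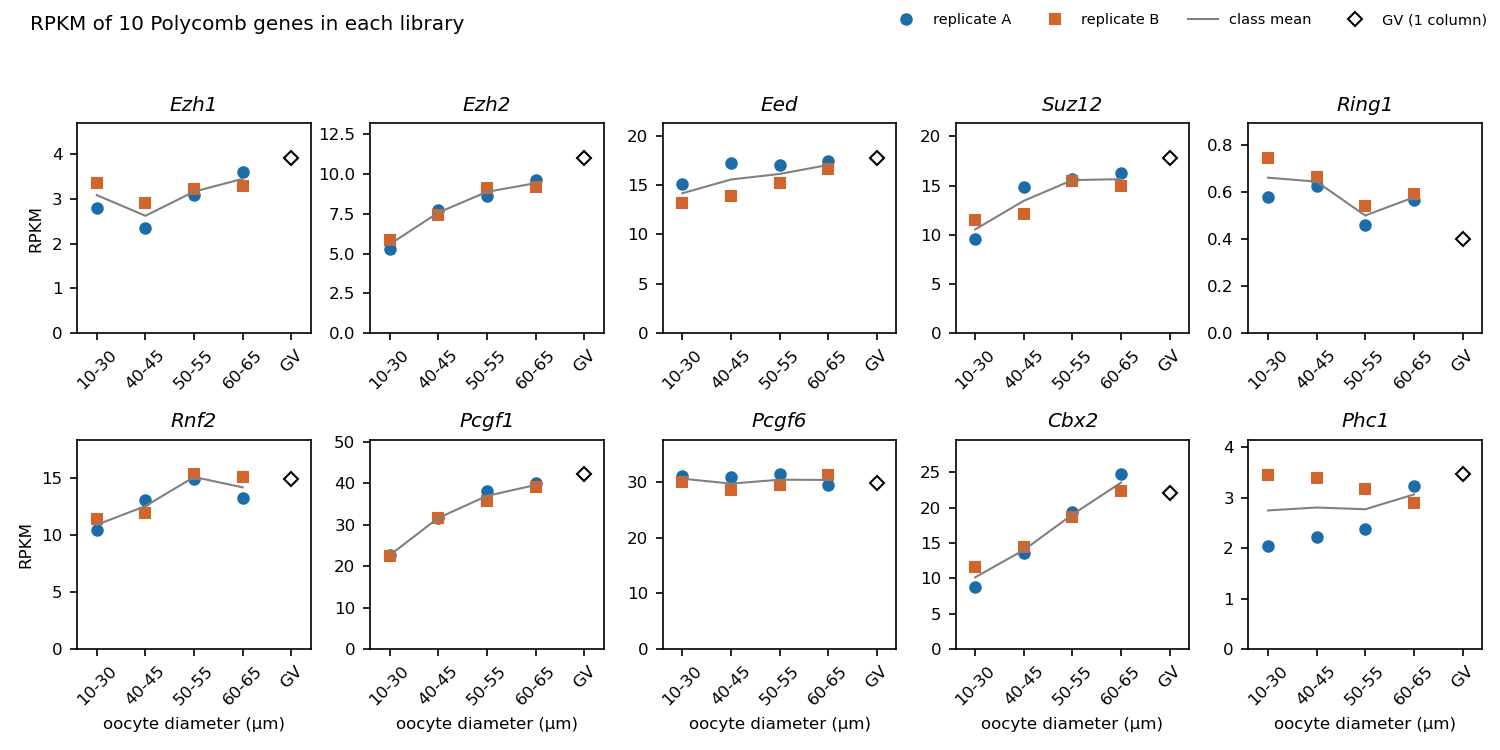
RPKM of each gene (vertical axes, each from 0) by oocyte diameter in μm, with replicate A as circles, replicate B as squares, the class mean as a line and the single GV column as a diamond. Cbx2, Pcgf1 and Ezh2 lie higher in each larger class, Pcgf6 stays near 30 RPKM, and the replicates of Phc1 lie apart in the 3 smaller classes.

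Of the PRC2 genes, Ezh2, the methyltransferase with the stronger activity of the pair, gave 5.26 and 5.88 RPKM at 10–30 μm (replicates A and B), 7.72 and 7.43 at 40–45 μm, 8.65 and 9.12 at 50–55 μm, then 9.66 and 9.20 at 60–65 μm. Each class lay wholly above the one before it, and the GV column stood highest at 11.0 RPKM. The log2 change from 10–30 to 60–65 μm was 0.77 (SE 0.09, limma adjusted p = 0.000165), a fold of 1.71 with a 95% interval of 1.47 to 1.97. At the first step it was 0.54 (SE 0.09, adjusted p = 0.00553), and the later steps of 0.19 and 0.04 did not pass. Ezh2 lies on chromosome 6 (47530274 to 47595341, minus strand, GRCm38).

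Ezh1, its paralogue, which is known to persist in cells that do not divide, gave 2.81 and 3.37 RPKM at 10–30 μm, 2.35 and 2.90 at 40–45 μm, 3.10 and 3.23 at 50–55 μm, then 3.61 and 3.29 at 60–65 μm, with 3.91 in GV oocytes. The first and last classes overlapped, and the log2 change between them was 0.18 with a 95% interval of -0.09 to 0.45 (limma adjusted p = 0.205). The ratio of Ezh2 to Ezh1 was 1.87 and 1.75 at 10–30 μm and lay between 2.56 and 3.29 in the 6 libraries of larger growing oocytes, with 2.81 in GV oocytes. Both ratios at 10–30 μm were therefore below those of each later library. No test was made of this ratio. Ezh1 lies on chromosome 11 (101191115 to 101226463, minus strand).

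Suz12, which holds the PRC2 core together, gave 9.61 and 11.5 RPKM at 10–30 μm, 14.8 and 12.1 at 40–45 μm, 15.7 and 15.4 at 50–55 μm, then 16.3 and 15.0 at 60–65 μm, with 17.8 in GV oocytes. Both replicates of each later class were above both at 10–30 μm, whereas the 50–55 and 60–65 μm classes overlapped. The change from 10–30 to 60–65 μm was 0.59 (SE 0.13, limma adjusted p = 0.00405), a fold of 1.51 with an interval of 1.23 to 1.85. The first step, 0.45 (SE 0.13, adjusted p = 0.0376), was called in 9 of 19 other settings of the test, and it was lost without replicate A at 10–30 μm (adjusted p = 0.153) or at 40–45 μm (adjusted p = 0.193). It was also lost without any 1 of the 4 libraries at 50–55 and 60–65 μm (adjusted p = 0.0632 to 0.0669). Suz12 lies on chromosome 11 (79993106 to 80034123, plus strand).

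Eed, the subunit that binds the finished PRC2 mark, gave 15.1 and 13.2 RPKM at 10–30 μm, 17.2 and 13.96 at 40–45 μm, 17.0 and 15.3 at 50–55 μm, then 17.5 and 16.6 at 60–65 μm, with 17.7 in GV oocytes. Replicate A was the higher one in all 4 classes, and neighbouring classes overlapped at each step. The log2 change over growth was 0.29 with an interval of -0.05 to 0.62 (limma adjusted p = 0.116). Among the 4 PRC2 genes at 10–30 μm the mean level was highest for Eed (14.2 ± 1.36 RPKM, SD, n = 2), followed by Suz12 (10.5 ± 1.31), Ezh2 (5.57 ± 0.434) and Ezh1 (3.09 ± 0.394). At 60–65 μm the order was the same, with 17.1 ± 0.608 for Eed, 15.6 ± 0.929 for Suz12, 9.43 ± 0.327 for Ezh2 and 3.45 ± 0.226 for Ezh1. Eed lies on chromosome 7 (89954656 to 89980983, minus strand).

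The ligases of PRC1 differed most in level. Rnf2 gave 10.4 and 11.4 RPKM at 10–30 μm, 13.1 and 11.95 at 40–45 μm, 14.9 and 15.3 at 50–55 μm, then 13.3 and 15.1 at 60–65 μm, with 14.9 in GV oocytes. The class at 60–65 μm lay above that at 10–30 μm and overlapped that at 50–55 μm. The log2 change over growth was 0.40 (SE 0.11, limma adjusted p = 0.0116), a fold of 1.32 with an interval of 1.11 to 1.56, and it was not called without replicate B at 60–65 μm (0.30, adjusted p = 0.0955). Rnf2 lies on chromosome 1 (151469406 to 151500823, minus strand).

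Ring1 gave 0.580 and 0.745 RPKM at 10–30 μm, 0.628 and 0.663 at 40–45 μm, 0.462 and 0.541 at 50–55 μm, then 0.566 and 0.592 at 60–65 μm, and it was lowest in the GV column at 0.401. These values rest on 176 to 411 reads in growing oocytes and 258 in GV oocytes, the lowest counts among the 10 genes. Both replicates at 50–55 μm were below both at 40–45 μm, a log2 change of -0.35 with an interval of -0.65 to -0.05, which did not pass after adjustment (limma adjusted p = 0.121). Over the whole of growth the change was -0.14 with an interval of -0.44 to 0.16 (adjusted p = 0.365). Rnf2 exceeded Ring1 by 15.3 to 20.8 times at 10–30 and 40–45 μm, by 23.4 to 32.2 times in the 4 libraries of larger oocytes and by 37.1 times in GV oocytes. Ring1 lies on chromosome 17 (34020792 to 34024680, minus strand).

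Pcgf1 and Pcgf6, which define different variant PRC1 complexes, were the genes with the highest levels of the 10. Pcgf1 gave 22.7 and 22.5 RPKM at 10–30 μm, 31.7 and 31.5 at 40–45 μm, 38.2 and 35.7 at 50–55 μm, then 40.1 and 39.1 at 60–65 μm, with 42.1 in GV oocytes. Its replicates were close together and no neighbouring classes overlapped. The log2 change over growth was 0.83 (SE 0.09, limma adjusted p = 0.000119), a fold of 1.77 with an interval of 1.53 to 2.05, and 0.59 (SE 0.09, adjusted p = 0.00411) of it fell in the first step. Pcgf1 lies on chromosome 6 (83077869 to 83080855, plus strand).

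Pcgf6 gave 31.2 and 30.1 RPKM at 10–30 μm, 31.0 and 28.6 at 40–45 μm, 31.4 and 29.5 at 50–55 μm, 29.5 and 31.4 at 60–65 μm and 29.8 in GV oocytes. All 4 classes overlapped. Its log2 change over growth was 0.01 with an interval of -0.23 to 0.25 (limma adjusted p = 0.943), the upper end of which is a fold of 1.19. The ratio of Pcgf6 to Pcgf1 was accordingly 1.38 and 1.34 at 10–30 μm, 0.978 and 0.906 at 40–45 μm, 0.822 and 0.828 at 50–55 μm, 0.736 and 0.804 at 60–65 μm and 0.708 in GV oocytes, so that Pcgf6 was the higher of the pair in both libraries at 10–30 μm and Pcgf1 in each of the other 7 columns. Pcgf6 lies on chromosome 19 (47033619 to 47050845, minus strand).

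Of the canonical PRC1 genes, Cbx2, whose chromodomain binds the PRC2 mark, had the largest change of the 10. It gave 8.71 and 11.6 RPKM at 10–30 μm, 13.6 and 14.4 at 40–45 μm, 19.3 and 18.7 at 50–55 μm, then 24.7 and 22.4 at 60–65 μm, with 22.1 in GV oocytes. No neighbouring classes overlapped. The log2 change over growth was 1.24 (SE 0.12, limma adjusted p = 5.37e-05), a fold of 2.36 with an interval of 1.95 to 2.85, and the 3 steps gave 0.58, 0.40 and 0.26. The first step was called (adjusted p = 0.0114), although not without replicate A at 40–45 μm (adjusted p = 0.0582) or in a fit of these 2 classes alone (0.0548). The second was not (adjusted p = 0.0709), but was called when either library at 10–30 μm was left out (adjusted p = 0.0248 without A and 0.0244 without B). Cbx2 lies on chromosome 11 (119022962 to 119031270, plus strand).

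Phc1, a subunit whose SAM domain links complexes together, gave 2.05 and 3.45 RPKM at 10–30 μm, 2.21 and 3.40 at 40–45 μm, 2.37 and 3.17 at 50–55 μm, then 3.24 and 2.89 at 60–65 μm, with 3.46 in GV oocytes. Replicate B was higher than A in the 3 smaller classes and lower at 60–65 μm, and all classes overlapped. Its SE of 0.25 was the largest of the 10, and the log2 change over growth was 0.21 with an interval of -0.35 to 0.78 (limma adjusted p = 0.466), folds of 0.786 to 1.71. Phc1 lies on chromosome 6 (122317731 to 122340561, minus strand).

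**Figure D2:**
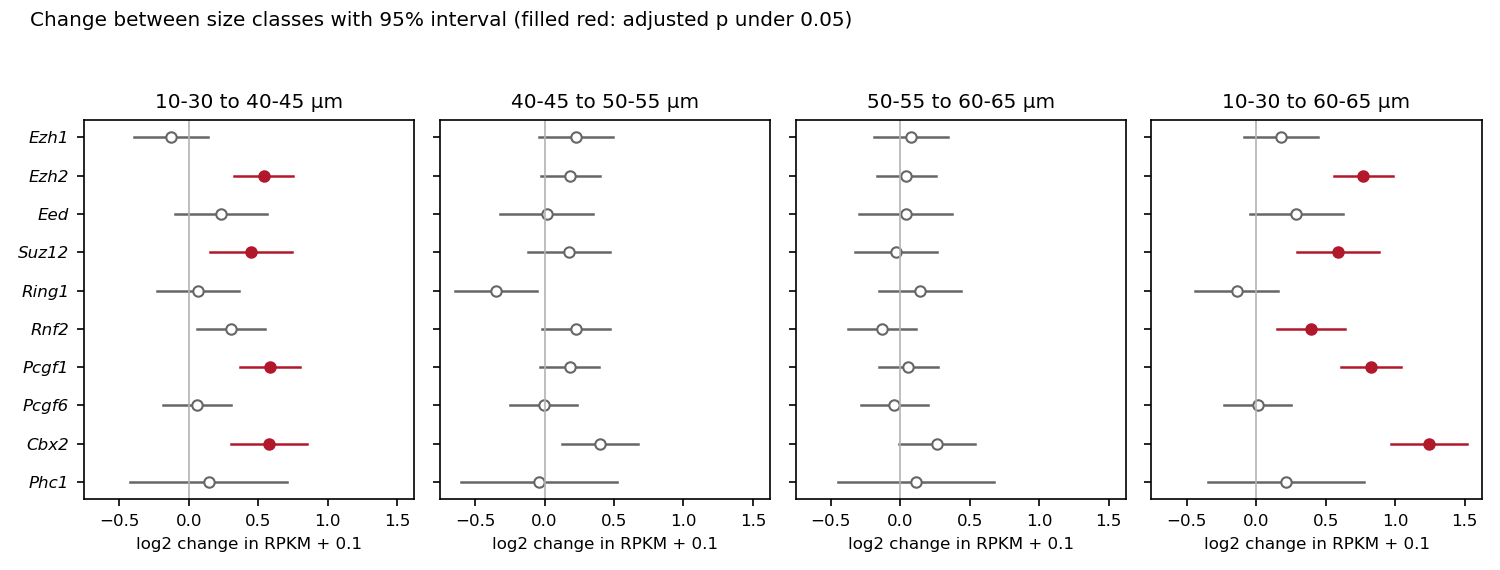
Log2 change in scaled RPKM plus 0.1 of each gene (vertical axis) for the 3 steps between size classes and for the whole of growth, with bars for the 95% interval of the limma fit and filled red points for an adjusted p under 0.05. Filled points are seen for 4 genes at the first step, for none at the next 2 and for 5 over the whole of growth, with Cbx2 at 1.24.

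Between 60–65 μm and GV oocytes, where 1 GV column allows no test, the GV value was 0.693 times the 60–65 μm mean for Ring1 and between 0.938 (Cbx2) and 1.17 (Ezh2) times for the other 9 genes. Across the 9 columns the scaled log2 levels of Ezh2, Pcgf1, Suz12, Rnf2 and Cbx2, the genes called higher over growth, moved together. Pearson's r was between 0.83 and 0.98 for each pair of them. They were picked by their rise and the columns share the order of growth, so these values describe the same trend, with no test. In the remaining pairs of Polycomb genes r lay between -0.76 (Pcgf6 with Phc1) and 0.78 (Eed with Pcgf1). By the same measure over the 10517 other tested genes, those most like Cbx2 were Usp27x (r = 0.998), Fam117a (0.997) and Rgs3 (0.997), among 964 genes with r over 0.95. The gene most like Ring1 was Barx1 (0.953).

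In the RNA libraries the markers of other ovarian cells also moved with size. The summed RPKM of 13 granulosa cell markers was 2.17 and 2.58 at 10–30 μm, 3.56 to 6.04 at 40–45 and 50–55 μm and 8.07 and 7.46 at 60–65 μm, with 9.89 in GV oocytes, and between 1 and 3 of the 13 reached 0.5 RPKM in a library. Most of that sum was Nr5a2, with 1.29 and 1.73 RPKM at 10–30 μm and 4.81 and 4.60 at 60–65 μm, whereas Foxl2, which defines granulosa cells, lay between 0.0424 and 0.0639 RPKM at 10–30 μm and between 0.0373 and 0.0642 at 60–65 μm. Cyp19a1 was listed at 0.161 and 0.159 RPKM at 10–30 μm and at 1.25 and 1.04 at 60–65 μm, and Inha at 0.136 and 0.2004 and at 0.542 and 0.528. Amh, Kitl, Fshr and Gja1, all under 0.5 RPKM in the growing oocytes, were likewise higher in both 60–65 μm libraries than in both at 10–30 μm. Of the granulosa markers, Nr5a2, Cyp19a1 and Inha passed the filter, the last 2 only through the larger classes, so no test of them is given, and Nr5a2 was called higher by limma. The 4 endothelial markers summed to 1.06 and 1.17 RPKM at 10–30 μm and 5.93 and 5.34 at 60–65 μm, mainly Pecam1. Tek went from 0.476 and 0.629 to 1.19 and 1.11 RPKM and Kdr from 0.00553 and 0.00519 to 0.0288 and 0.0372 RPKM, while Cdh5 was at 0.0101 RPKM or less in each library. Pecam1 and Tek passed the filter, and Pecam1 was called higher by limma. Tek reached 0.5 RPKM in only 1 library at 10–30 μm, so no test of it is given. The 7 markers of stroma and theca summed to 3.83 and 2.72 RPKM at 10–30 μm and 1.04 and 0.926 RPKM at 60–65 μm. Col1a1 (1.63 and 1.16 RPKM at 10–30 μm), Col1a2, Col3a1 and Dcn were lower in both 60–65 μm libraries than in both at 10–30 μm. Star and Cyp17a1 went the other way, and Lum overlapped. Star went from 0.0217 and 0.0384 to 0.0648 and 0.107 RPKM and Cyp17a1 from 0 and 0 to 0.0132 and 0.107 RPKM. The part of these lists in the changes of the Polycomb genes was not tested.

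Exons of other genes overlap those of 4 of the 10 genes on the opposite strand in GENCODE M21, for 6.82% of the exon bases of Eed (E230029C05Rik), 3.83% of Rnf2 (Trmt1l), 3.60% of Suz12 (Gm26563) and 2.61% of Ezh2 (Gm26625). The libraries kept the strand of the RNA, but the use of strand in counting is not given in the sources used here, so reads in these stretches may come from either gene.

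The partners of the complexes were counted as lists. Of 9 PRC2 partners, 7 passed the filter on low values, and from 10–30 to 60–65 μm 5 of them rose, 1 fell and 1 did not pass the test by limma, with a median log2 change of 0.47 against 0.02 for all genes, of which 32.6% were called higher and 30.8% lower. The largest rise was that of Ezhip (listed as AU022751; 1.41, SE 0.15, adjusted p = 7.98e-05), known as an inhibitor of PRC2, which went from 46.2 and 59.0 RPKM to 157 and 119 RPKM. Jarid2, which recruits PRC2, rose by 0.79 (adjusted p = 0.000711) and Aebp2 by 0.52 (adjusted p = 0.00487), whereas the histone-binding subunit Rbbp4 fell by 0.65 on the log2 scale (adjusted p = 0.00141), from 6.02 and 5.59 to 3.90 and 3.32 RPKM. Without either library at 60–65 μm, 3 of the 7 were called higher.

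Of 23 PRC1 partners, 20 passed the filter, with 9 called higher, 2 lower and 9 not called, beside the same 32.6% higher and 30.8% lower among all genes. With the replicate letter added to the fit, 11 were called higher and 3 lower. With no filter on low values, 8 of the 23 were called higher and 5 lower, and the counts also moved with 1 library left out. The largest rises were those of Scml2 (2.16, SE 0.25, adjusted p = 0.000127) and Kdm2b (1.74, SE 0.19, adjusted p = 9.75e-05) among the genes at 0.5 RPKM or more at both ends of growth. Bcor and Bcorl1, counted among the 9, passed the filter only through larger classes, with 0.377 and 0.429 RPKM (Bcor) and 0.220 and 0.379 RPKM (Bcorl1) at 10–30 μm, and of the other 18 partners 7 were called higher and 2 lower, with a median of 0.30. Kdm2b, which brings the PCGF1 complex to unmethylated CpG islands, gave 2.45 and 3.96 RPKM at 10–30 μm and 11.8 and 9.29 at 60–65 μm. The genes called lower were Pcgf3 (-0.64, adjusted p = 0.00162) and Pcgf5 (-0.44, adjusted p = 0.00377), which build further variant complexes. The paralogue of Pcgf1 that is best known from canonical PRC1, Bmi1, is also in the list and rose by 0.84 (adjusted p = 0.000326; named after its values were seen).

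A further list holds the demethylases of the PRC2 mark Kdm6a and Kdm6b, the H2A deubiquitinase Bap1 and 7 genes of the Asxl, Foxk and Mbd families, known as partners of BAP1. Of these 10 genes, 7 passed the filter and 6 were called higher, none lower, where 32.6% of all genes were called higher and 30.8% lower. Mbd5 was at 0.292 and 0.301 RPKM at 10–30 μm and passed the filter only through the larger classes, and of the other 6 genes 5 were called higher, with a median of 0.92. Of the 7, 4 were called higher without replicate A at 60–65 μm, and 5 without replicate A at 10–30 μm or B at 60–65 μm. Foxk1 (1.17, adjusted p = 0.00549) and Asxl1 (1.10, adjusted p = 0.000554) rose most among the genes at 0.5 RPKM or more in both libraries at 10–30 μm. Kdm6b, counted among the 5, reached 0.5 RPKM in only 1 library at 10–30 μm, so no test of it is given. The replicates at 10–30 μm lay far apart for Kdm6b (0.336 RPKM in A and 0.906 in B, against 1.37 and 1.16 at 60–65 μm) and for Foxk1 (0.870 and 1.76, against 3.44 and 2.42). Of 5 genes known to be imprinted through the maternal PRC2 mark (Sfmbt2, Gab1, Slc38a4, Jade1 and Smoc1), Jade1 alone passed the filter. Jade1 (listed under its older symbol Phf17) gave 0.759 and 0.810 RPKM at 10–30 μm, 0.272 and 0.331 at 40–45 μm, 0.0815 and 0.122 at 50–55 μm, then 0.0544 and 0.0502 at 60–65 μm. It passed the filter only through its level at 10–30 μm, so no test of its change is given. The other 4 stayed at or below 0.366 RPKM in each of the 9 columns.

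The methylation of the genes themselves was read at 2 places, within 1 kb of the gene start and from 2 kb inside the gene to its end, as the mean over CpG cytosines with at least 5 reads. In oocytes, methylation is known to be laid down mainly across transcribed gene bodies, while CpG-rich starts mostly stay free of it. At 60–65 μm by PBAT, all 10 starts were nearly unmethylated, between 1.73% (Phc1) and 5.14% (Ezh1), on 378 to 1182 calls each. The median over the 10 genes was 3.32%, beside 3.87% over 19669 genes with enough positions.

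By RRBS, no start of the 10 exceeded 2.94% in any of the 6 libraries. For Cbx2 the values were 0.985 and 0.273% at 40–45 μm, 1.08 and 2.94% at 50–55 μm, then 1.51 and 1.88% at 60–65 μm. Both 60–65 μm libraries lay above both 40–45 μm libraries for 3 starts (Cbx2, Rnf2 and Phc1) of the 10, where 18.4% of 12008 gene starts did so. For none of the 3 was the difference of the means as large as 5 percentage points. Both lay below for 1 of the 10 starts and for 1698 of the 12008. With at least 1 read per position, 2 of the 10 were above and 1 below, and with at least 10 reads, 2 were above and 2 below.

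**Figure D3:**
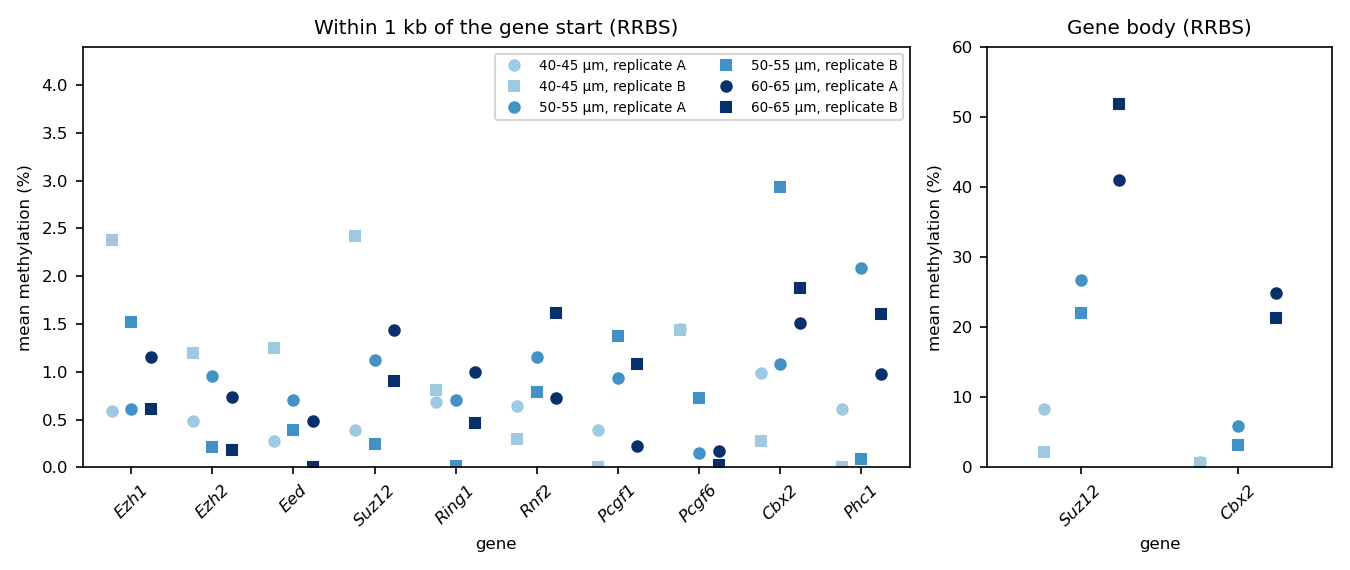
Mean methylation in percent by RRBS within 1 kb of the start of each gene (left) and in the bodies of Suz12 and Cbx2 (right), with circles for replicate A, squares for replicate B and darker points for larger oocytes. The starts stay under 3% in each library, while both bodies are higher at 60–65 than at 40–45 μm, Suz12 at 41.0 and 51.9%.

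Gene bodies could be followed across the size classes for 2 of the 10 genes, Suz12 and Cbx2, since RRBS samples CpG-rich fragments and the other 8 bodies had fewer than 5 positions in at least 1 library. In Suz12, on 5 or 6 positions, methylation was 8.29 and 2.21% at 40–45 μm, 26.7 and 22.0% at 50–55 μm, then 41.0 and 51.9% at 60–65 μm. In Cbx2, on 10 to 21 positions, it was 0.752 and 0.568% at 40–45 μm, 5.93 and 3.11% at 50–55 μm, then 24.9 and 21.3% at 60–65 μm. In both bodies each class lay wholly above the one before. Of 7094 gene bodies with enough positions, 66.7% had both 60–65 μm libraries above both 40–45 μm libraries. With 2 libraries against 2, no test was made.

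Whole gene bodies were covered at 60–65 μm by PBAT for all 10 genes. Methylation was highest in Phc1 (73.7%, 389 of 527 calls, 95% Wilson interval of the pooled share 69.9 to 77.4%) and Ezh1 (66.7%, 740 of 1118 calls, 63.4 to 68.9%). It was intermediate in Suz12 (54.8%), Ezh2 (54.1%), Eed (52.4%) and Rnf2 (43.1%), on 231 to 424 calls each. The intervals of the first 3 of these overlapped, and that of Rnf2 (37.4 to 46.7%) nearly met that of Eed (47.0 to 59.8%). The intervals take each call as independent, whereas the paper reports that neighbouring CpGs tended to be methylated together. Rnf2 and Eed are therefore not told apart by them. Cbx2 (30.8%, interval 29.4 to 34.8%) and Ring1 (27.7%, interval 19.6 to 32.6%) followed. Pcgf6 (13.4%, 40 of 282 calls, 10.6 to 18.7%) and Pcgf1 (4.30%, 4 of 95 calls, 1.65 to 10.3%) were lowest, and the intervals cover counting error only in a single library.

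The median over the 10 bodies was 47.8%, beside 51.4% over the 8063 genes with RPKM in the same range as these 10 at 60–65 μm and 9.69% over 9086 genes under 0.5 RPKM. Among 5676 genes of at least 2 RPKM, Pcgf1 stood at the 0.511 percentile and Pcgf6 at the 4.26 percentile of body methylation, Cbx2 at the 15.6, and Ezh1 and Phc1 at the 88.5 and 97.0 percentiles. The 2 genes with the highest RNA levels of the 10 thus had the lowest body methylation, and among the 9 genes above 2 RPKM the 2 with the lowest RNA levels (Phc1 at 3.06 ± 0.250 and Ezh1 at 3.45 ± 0.226 RPKM) had the highest. The order over 10 genes is given as a description. The genes also differ in length, Pcgf1 spanning 2987 bases, of which 15 positions beyond 2 kb were measured, and Ezh1 35349 bases.

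**Figure D4:**
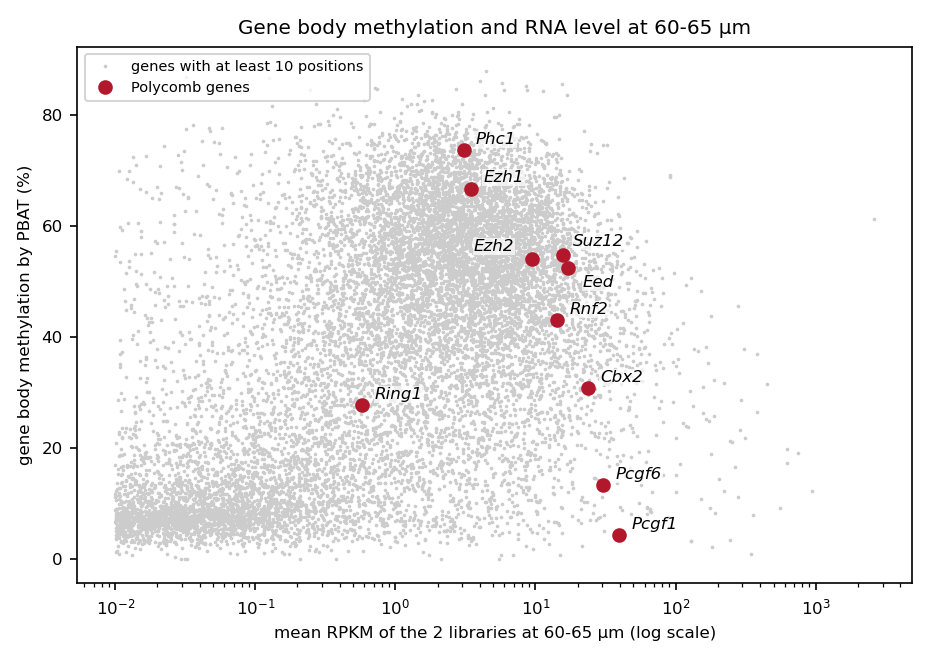
Gene body methylation in percent by PBAT against the mean RPKM of the 2 libraries at 60–65 μm on a log axis, with each gene of more than 0.01 RPKM and at least 10 measured positions in grey and the 10 Polycomb genes in red. Pcgf1 and Pcgf6 lie at the bottom right with 4.30 and 13.4%, Phc1 and Ezh1 near the top with 73.7 and 66.7%, and Ring1 stands apart at 0.579 RPKM.

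In bins of 2 kb, the long genes were low at the start and higher in the body. Of Ezh1, Ezh2, Eed, Suz12, Rnf2 and Phc1, only Phc1 had a measured bin from 2 to 4 kb. How steep the rise was in the others was therefore not seen. Ezh1 had 5.76% in the first 2 kb, 80.3% from 6 to 8 kb and 88.3% from 16 to 18 kb, and then 18.5% from 34 to 36 kb at its end. Phc1 had 1.62% in the first 2 kb and 65.1% in the next, and kept 68.8 to 85.1% in the other measured bins of the gene. Eed reached 71.6% from 14 to 16 kb and was at 3.33% from 22 to 24 kb, still inside the gene. In Suz12 the 4 measured bins between 8 and 36 kb held 56.6 to 65.2%, after 2.35% in the first 2 kb. Rnf2 held 31.2 to 66.5% between 6 and 28 kb.

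The short and the low-methylated genes had another profile. Cbx2 had 2.78% in the first 2 kb, 9.35% in the next, 43.4% from 4 to 6 kb and 18.8% from 6 to 8 kb. Pcgf6 had 4.19, 10.0 and 0% in its first 3 bins, 24.6% from 6 to 8 kb and 33.3% from 16 to 18 kb, the highest of the gene. Ring1 had 7.99% and then 27.7%, and Pcgf1 2.44% and then 4.30%, in the 2 bins that cover each of them. A bin was kept with at least 5 positions, and several bins of Ezh2, Eed and Suz12 had fewer.

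**Figure D5:**
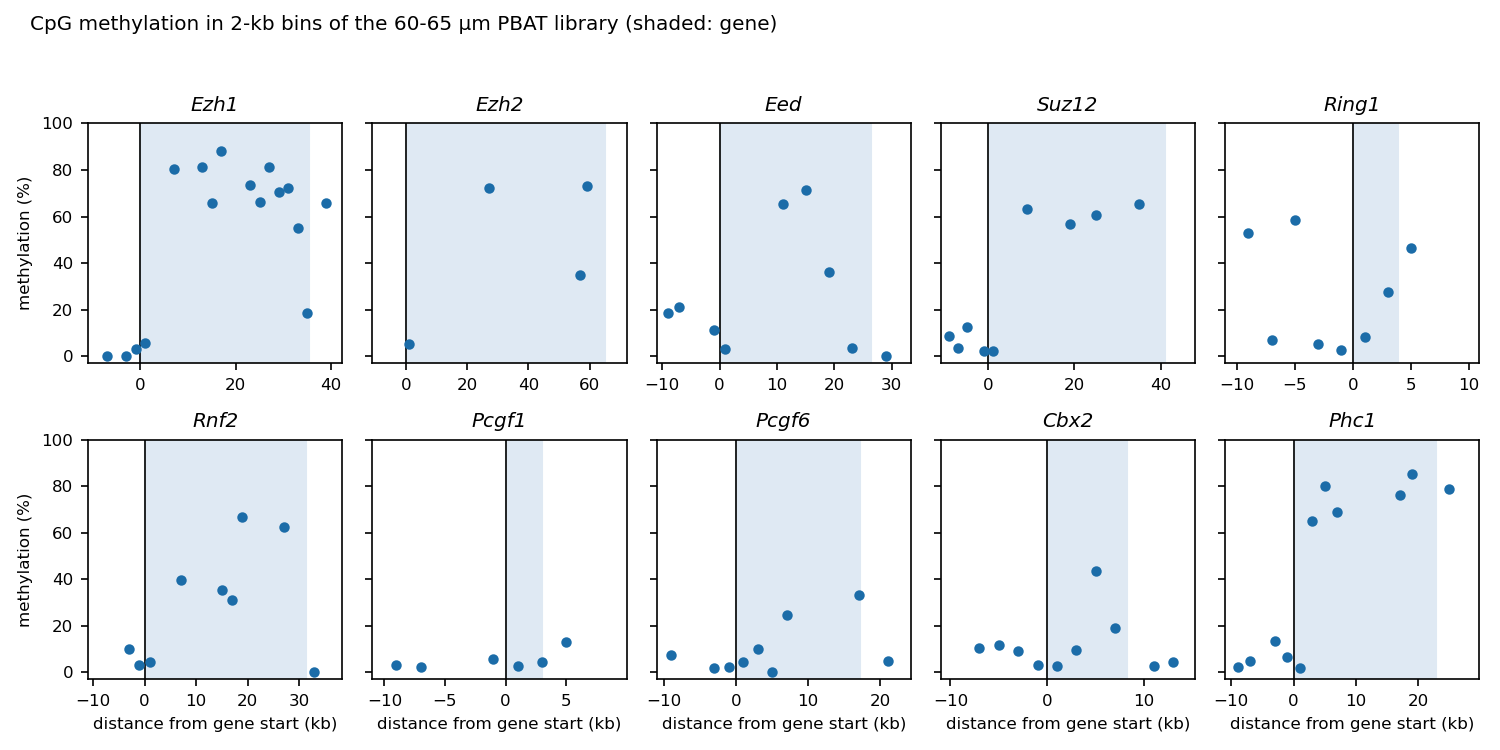
CpG methylation in percent in bins of 2 kb by distance in kb from the start of each gene, along its strand, in the 60–65 μm PBAT library, with the gene shaded and each point a bin of at least 5 positions. The first bin inside each gene is at most 7.99%, and the bodies of Ezh1 and Phc1 reach 88.3 and 85.1%, whereas no bin inside Pcgf6 is above 33.3%.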

How the data were processed

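RNA-seq, RRBS and PBAT libraries were grouped by the size class in the labels. The authors trimmed reads with Trim Galore (0.2.8 or 0.3.5), aligned RNA with TopHat2 2.0.9 and bisulphite reads with Bismark (0.10.0 or 0.14.0) to GRCm38, and PBAT reads were deduplicated. The authors deposited RNA values as RPKM, 1 column per library, and methylation as counts of methylated and unmethylated calls with a percent per cytosine. Removal of RRBS duplicates and strand use in counting are not given in the sources used here.

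The 10 genes and the wider lists were chosen with earlier results of these data known. RPKM were scaled by trimmed means (30% of ratios, 5% of levels; factors 0.942 to 1.06) and log2(RPKM + 0.1) was fitted with limma 3.58.1 in R 4.3.3, the test for RPKM. Genes needed 0.5 RPKM in 2 of 8 libraries. A fold on this scale understates changes of low genes. GV oocytes, with 1 column, were left out of the fit. RPKM times length gave whole reads within 0.02 reads for 99.3 to 100% of single-exon values under 50 reads, and edgeR 4.0.16 was run on these reads as an alternative chosen after the data were seen, as was scaling over the tested genes. On simulated data for 10–30 against 60–65 μm with 10518 genes, limma called 166 of 200 genes changed by a log2 of 1 and 11 unchanged genes. On separate simulated read counts, edgeR called 190 of 200 and 8 unchanged genes, so the numbers do not compare the methods.

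Methylation was averaged over cytosines with at least 5 reads, in starts with at least 5 positions and in PBAT bodies with at least 10. RRBS gave 29942043 to 57215134 calls per library and PBAT 98148116. Intervals are 95% Wilson intervals and cover counting error only. All 10 genes were named. Of the wider lists, the 3 largest called rises and falls over growth were named. No test is given where a gene reached 0.5 RPKM in fewer than 2 libraries of the class where it was low. Bcor, Bmi1 and Mbd5 were named after their values were seen. For Ring1, 1 gene is given as most alike, and the others are not reported here.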

Additional observations from a re-analysis of the deposited data

How the results depend on the processing

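The 4 calls from 10–30 to 40–45 μm became 2 in a fit of only the 2 classes compared and ranged from 2 to 4 with 1 library left out, 2 being without replicate A at 40–45 μm. Between 40–45 and 50–55 μm the count went from 0 to 1 (Cbx2) with the replicate block (adjusted p = 0.0462), and ranged from 0 to 1 with 1 library left out. The 5 calls over growth became 6 under the block, which added Eed (adjusted p = 0.0275), and ranged from 4 to 5 with 1 library left out. The causes were not tested. Deviations of libraries with the same letter correlated by 0.59 to 0.67 among the 3 smaller classes and by -0.23 to 0.11 with the 60–65 μm class, so the letters were not taken to pair them across all classes. For all genes, a fit of only the 2 classes gave 683 higher and 320 lower at the first step, and the block gave 149 higher and 81 lower in the last step against 0 and 0, and 1003 and 906 against 550 and 383 in the step before. At 10 or more reads per position 3 bodies were left, with a median of 64.0% against 47.8%. None of the 10 genes that was called in a comparison changed sign there under any alternative run. Signs did change where a gene was not called, on the log2 scale. Without scaling, Pcgf6 gave -0.0433, 0.0341 and, over growth, -0.0109, Ring1 -0.0241 at the first step and Suz12 0.0074 at the last. For Pcgf6, scaling over the tested genes gave 0.0063 at the second step and -0.0066 over growth, and edgeR 0.0007 and -0.0073. With 1 library left out, the first step ranged from -0.0279 to 0.1474 for Pcgf6, -0.175 to 0.4662 for Phc1 and -0.0507 to 0.187 for Ring1. The second ranged from -0.1644 to 0.1961 for Eed, -0.0944 to 0.0807 for Pcgf6 and -0.3097 to 0.2297 for Phc1. The last ranged from -0.0448 to 0.1221 for Eed, -0.0978 to 0.0074 for Pcgf6, -0.0858 to 0.308 for Phc1 and -0.0888 to 0.0169 for Suz12. Growth ranged from -0.0635 to 0.0711 for Pcgf6 and -0.1123 to 0.5305 for Phc1. Depth limits Ring1, at 176 to 411 reads, and the methylation windows with under 100 calls.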
